A study of Homo sapiens with 40 samples.

Results

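An inhibitor of NF-kB was switched on in OCI-Ly10 cells, and RNA was followed at 1.5, 3, 6 and 24 h on 1 array each. These are all 4 arrays, of 40 in the series, whose title names OCI-Ly10 with the inducible IkB super-repressor, iIkBsr. OCI-Ly10 is an established human cell line from a diffuse large B cell lymphoma of the activated B cell-like type. Its cells carried the inducible iIkBsr transgene and received 20 ng/ml doxycycline, and their RNA was labelled with Cy5. The control RNA, labelled with Cy3, came from the same iIkBsr line without doxycycline, so both channels share the transgene. Of the other 36 arrays, those in OCI-Ly10 covered IL-6 (8 arrays), JAK inhibitor I (4) and STAT3 siRNA (5). The rest covered the same kind of super-repressor (9), also at 20 ng/ml, and IL-10 (10) in OCI-Ly3, a second such line. The siRNA is labelled as a SMARTpool and its control as no siRNA. Among the labels there is no doxycycline in cells without the transgene, no array with exchanged dyes and no word on whether the line is 1 clone. An effect of doxycycline itself therefore cannot be told apart from that of the super-repressor, and a gene's own dye bias is not balanced within these 4 arrays.

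NF-kB is a family of dimeric transcription factors that IkB proteins hold inactive in the cytoplasm. Signals from the B cell receptor and from Toll-like receptors make IKK phosphorylate IkB alpha, which is then degraded, and NF-kB enters the nucleus. The super-repressor is an IkB alpha that cannot be phosphorylated in this way, so it keeps NF-kB inactive. Activated B cell-like lymphomas are known for constant NF-kB activity, on which their survival depends.

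Every value is a log ratio of induced over uninduced cells, read as log2, so -1 means a level lower by a factor of 2 and 0 no difference. The 4 arrays had values for 14730 to 14947 of 15246 probes. Their ratios were narrow, with standard deviations over probes of 0.118, 0.207, 0.182 and 0.257 in order of time. On the other 36 arrays they ran from 0.195 to 0.599, with a median of 0.329. The spread used in the tests came from repeated time points of those other experiments, since no time of this course was repeated, and its median per gene was 0.202 (SD). The SE of each value here rests on that pooled spread, not on one measured on these arrays. Whether repeats came from different cultures is not in the labels, and the p-values therefore cover only the sample-to-sample spread, which may be technical.

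Few genes passed a 1.5-fold difference before 24 h, and most of those that did were lower in induced cells. At 1.5 h no gene was 1.5-fold higher or lower (0% of 4578 genes in either direction). At 3 h 4 genes were at least 1.5-fold higher (0.0877%) and 24 at least 1.5-fold lower (0.526%), and at 6 h 2 (0.0439%) and 21 (0.461%) were. At 24 h 28 were higher (0.613%) and 62 lower (1.36%). The highest and lowest genes were CCL4 and CXCL10 at 6 h, and JCHAIN and CXCL10 at 24 h. Across the 4504 genes with a value on all 4 arrays, Pearson's r was 0.548 between 6 and 3 h, 0.585 between 24 and 6 h and 0.223 between 24 and 3 h. The 4 arrays lie in 1 run of consecutive array identifiers and may share control RNA, which the labels do not state.

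Averaged over 3, 6 and 24 h, 10 of 4514 genes rose (0.222%) and 14 fell (0.31%) at an adjusted p under 0.05 by limma with Benjamini-Hochberg adjustment. Below, rose and fell over 3 to 24 h refer to this average against 0, that is, against uninduced cells. They do not mean a change between 3 and 24 h. With every array scaled to the same spread the counts were 124 and 115. With the run of array identifiers as a random block they were 1 (CCL4) and 4 (CXCL10, NFKBIA, TNFAIP3 and PLEK), and no other of the 24 genes passed. The SEs and p-values given below come from the fit without this block, which treats the arrays of the course as independent. Tested singly against 0, the 1.5, 3 and 6 h arrays gave 0 calls (0% each), with 4, 73 and 47 genes at an unadjusted p under 0.05. Without any change a share of 0.05 of the genes would be due at this level, and all 3 counts lay below it. The SDs over genes on these arrays, 0.0966, 0.176 and 0.147, were below the median spread of 0.202 used in the test. These 0 calls therefore do not show that no gene changed before 24 h. The 24 h array gave 5 higher (0.11%) and 7 lower (0.153%) genes of 4563. Of these 12 genes, 10 were among the 24 called over 3 to 24 h. The 24 h array is part of that average, so this overlap is not agreement between separate results. The count depended on the later arrays: 17 genes were called without the 3 h array, 5 without the 6 h array and 1, NFKBIA, without the 24 h array.

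**Figure D1:**
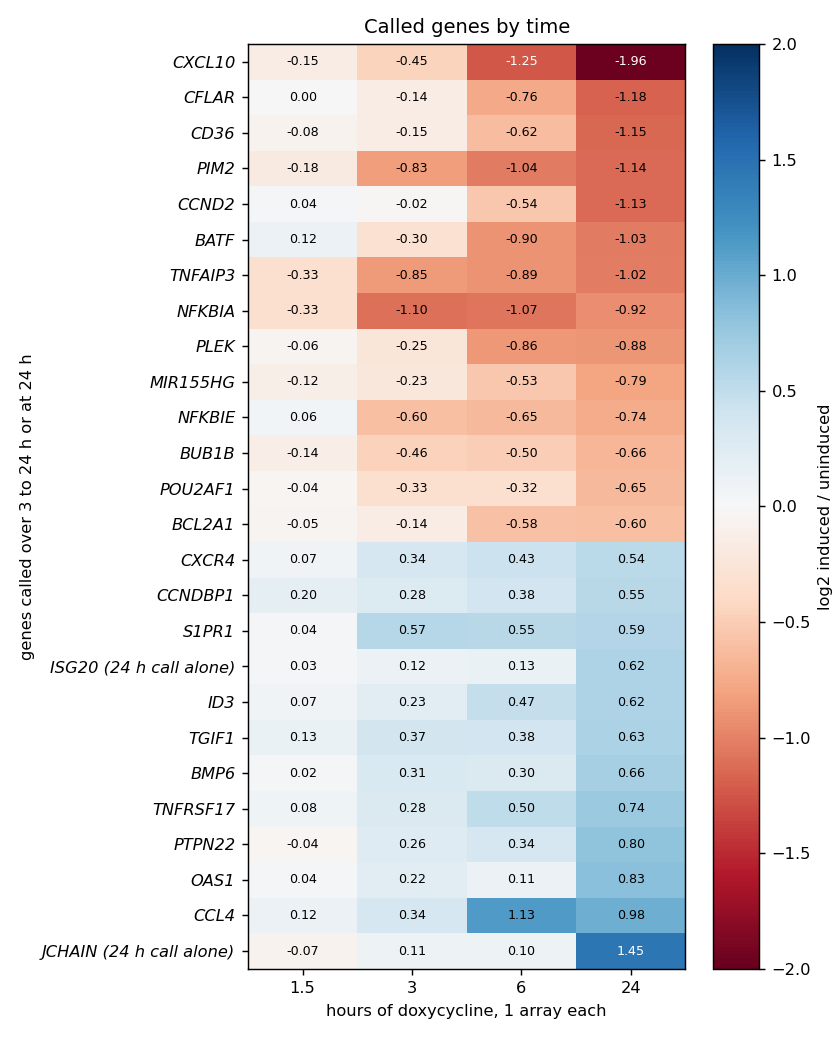
Log2 ratio of induced over uninduced cells for the 26 genes called over 3 to 24 h or at 24 h, with 1 column per array and time and the value printed in each cell. The 14 lower genes reach -0.60 to -1.96 at 24 h, and the 12 higher genes reach 0.54 to 1.45.

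Among the genes already 1.5-fold lower at 3 h were 3 that encode NF-kB inhibitors. NFKBIA encodes IkB alpha and is itself switched on by NF-kB, as is TNFAIP3, which encodes the deubiquitinase A20. NFKBIA was at -0.33, -1.10, -1.07 and -0.92 at 1.5, 3, 6 and 24 h, and TNFAIP3 at -0.33, -0.85, -0.89 and -1.02. NFKBIE, which encodes IkB epsilon, was at 0.06, -0.60, -0.65 and -0.74. All 3 stood near their final level by 3 h. The 3 h ratio was 119% of the 24 h ratio for NFKBIA, 83.4% for TNFAIP3 and 80.9% for NFKBIE. Averaged over 3, 6 and 24 h, NFKBIA was lower by 1.03 ± 0.15 (SE, limma adjusted p = 0.00259), TNFAIP3 by 0.92 ± 0.14 (adjusted p = 0.00259) and NFKBIE by 0.66 ± 0.13 (adjusted p = 0.0171). Their 5, 6 and 2 probes all lay below 0 at 24 h. Probes of NFKBIA can also bind the RNA of the transgene, which is an IkB alpha, so its values need not show the cells' own gene alone.

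The list of IkB and A20 feedback inhibitors had 10 measured genes. All 10 lay below 0 at 3 h and at 6 h and 7 at 24 h, but 3 fell and 0 rose in the test. Of all 4514 genes tested 14 fell and 10 rose. The list's median was -0.19 at 3 h and -0.13 at 24 h, against -0.007 and -0.0035 over all genes. BCL3, an atypical IkB that acts in the nucleus, was at -0.12, -0.34 and -0.33 at 3, 6 and 24 h and did not pass (adjusted p = 0.61). Genes of the NF-kB subunits did not pass either. NFKB1, which encodes p105 and p50, was at -0.27, -0.49 and -0.69 over the same times, NFKB2 at 0.03, -0.11 and -0.29, RELB at -0.09, -0.18 and -0.23 and REL at -0.30, -0.14 and 0.06. Of 22 tested subunit and upstream signalling genes, 0 rose and 0 fell.

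The 250 bases before the start of the lowered genes NFKBIA, TNFAIP3 and CXCL10 are shown with each match to the kB consensus, the motif that NF-kB binds, in capitals. They are from RefSeq (GRCh38.p14), 5′ to 3′ on the gene's strand, with NFKBIA at chr14:35404750-35404999 on the minus strand, TNFAIP3 at chr6:137867009-137867258 on the plus strand and CXCL10 at chr4:76023498-76023747 on the minus strand.
NFKBIA: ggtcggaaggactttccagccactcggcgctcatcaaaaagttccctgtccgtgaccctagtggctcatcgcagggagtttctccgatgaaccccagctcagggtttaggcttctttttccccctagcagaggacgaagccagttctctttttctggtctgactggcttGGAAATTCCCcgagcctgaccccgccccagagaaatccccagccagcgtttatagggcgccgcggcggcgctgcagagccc
TNFAIP3: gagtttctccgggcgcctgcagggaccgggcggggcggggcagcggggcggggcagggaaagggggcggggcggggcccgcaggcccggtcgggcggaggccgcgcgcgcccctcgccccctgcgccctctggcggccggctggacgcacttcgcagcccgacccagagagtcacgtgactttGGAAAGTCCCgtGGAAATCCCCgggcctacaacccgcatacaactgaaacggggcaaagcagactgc
CXCL10: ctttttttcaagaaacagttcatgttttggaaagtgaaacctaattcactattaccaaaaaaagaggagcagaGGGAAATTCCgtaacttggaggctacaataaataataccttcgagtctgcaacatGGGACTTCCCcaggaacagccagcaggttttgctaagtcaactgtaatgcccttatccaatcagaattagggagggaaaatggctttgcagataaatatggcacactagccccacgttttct
The consensus was searched on both strands. NFKBIA had 1 match, 81 to 72 bases before the start. TNFAIP3 had 2, at 67 to 58 and 55 to 46 bases, and CXCL10 had 2, at 177 to 168 and 122 to 113 bases. Of all 35116 such windows in the table, 5.21% held a match, and of the 5666 windows of tested genes 6.58% did. Among the genes called over 3 to 24 h, 11 lowered genes had an entry and 4 of these held a match, the fourth being CFLAR, while 1 of 8 raised genes with an entry did, BMP6. Over all tested genes 343 of 3688 with an entry did. By windows the share was 21.1% for lowered and 6.25% for raised genes. The looser pattern GGGNNNNNCC, which spans the consensus, was in 36.8% of the windows of lowered genes and 81.2% of those of raised genes, against 65.2% of those of tested genes and 54.4% of all windows. A match is a run of letters in this window and was not tested for binding.

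**Figure D2:**
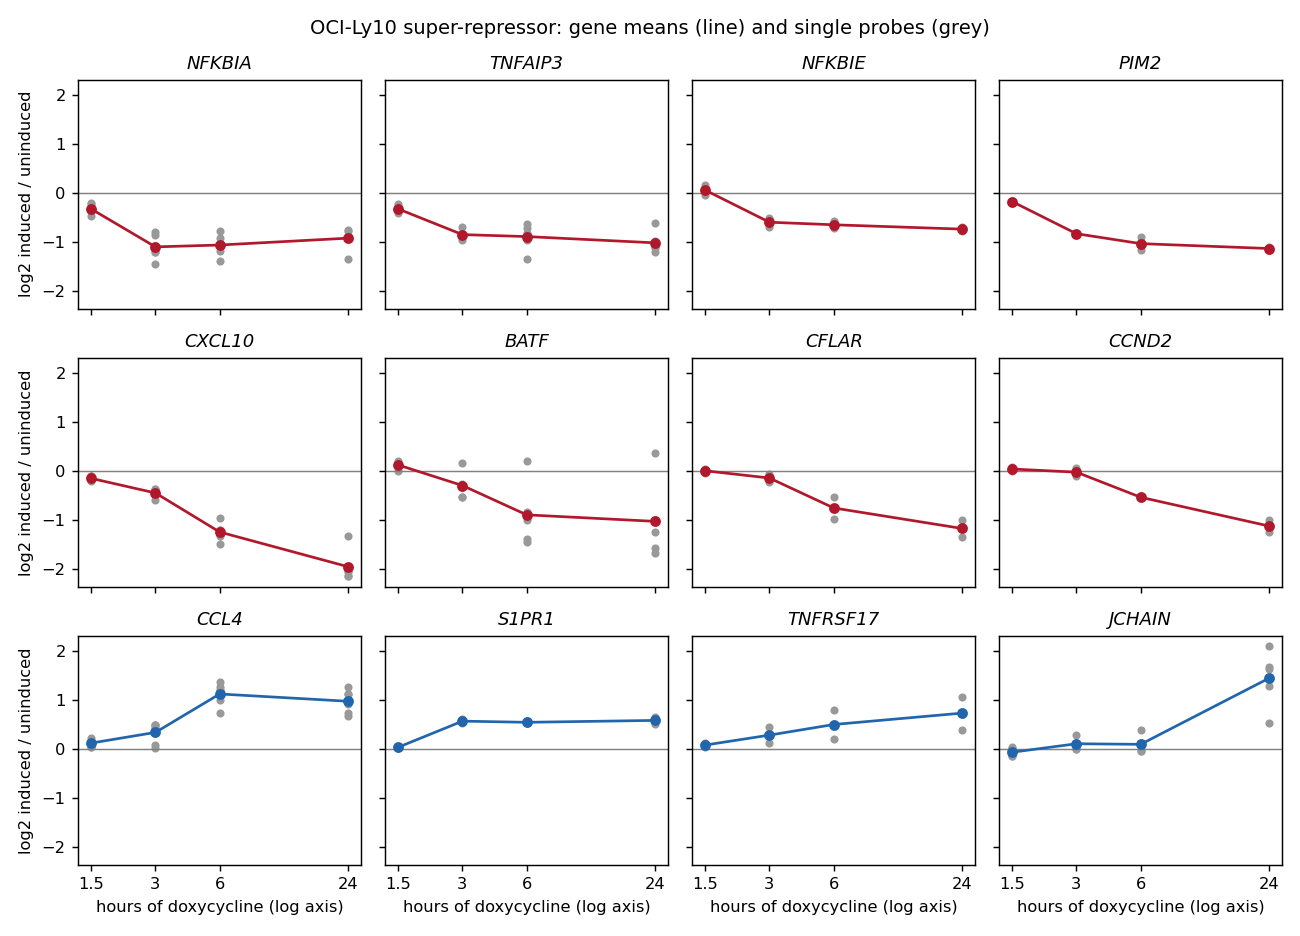
Log2 ratio of induced over uninduced cells against hours of doxycycline (log axis) for 12 genes, with 1 array per time. Lines join gene means and grey points are single probes. NFKBIA, TNFAIP3, NFKBIE and PIM2 are low by 3 h, CXCL10, BATF and CFLAR drop from 6 h, and JCHAIN is near 0 until 24 h, where it reaches 1.45.

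PIM2, a kinase that promotes survival, was also low by 3 h. It was at -0.18, -0.83, -1.04 and -1.14 at 1.5, 3, 6 and 24 h and was lower by 1.00 ± 0.20 averaged over 3, 6 and 24 h (adjusted p = 0.0207). Of the 14 lowered genes, 4 were 1.5-fold down at 3 h (NFKBIA, TNFAIP3, NFKBIE and PIM2), another 5 at 6 h and the other 5 first at 24 h. The 24 h value was the lowest of the course in 13 of the 14, NFKBIA being the exception. The stages follow the 1.5-fold cut. At 6 h the last 5 genes already had 47.7% (CCND2) to 97% (BCL2A1) of their 24 h ratio. With 1 array per time these stages have no spread of their own.

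CXCL10, a chemokine gene of the interferon and NF-kB responses, changed most. It was at -0.15, -0.45, -1.25 and -1.96 at 1.5, 3, 6 and 24 h, so that it was 3.89-fold lower in induced cells at 24 h. The 6 probes measured at 24 h ran from -2.16 to -1.34. CXCL10 was lower by 1.22 ± 0.13 averaged over 3, 6 and 24 h (adjusted p = 8.52e-05). It was also the 1 gene of 4503 (0.0222%) whose slope on log2 time passed, at -0.47 ± 0.08 per doubling of time (adjusted p = 0.0319). In all, 128 genes had a slope with an unadjusted p under 0.05, below the share of 0.05 due without any change. The slope of CXCL10 no longer passed without the 1.5, the 3 or the 24 h array, or with time in hours.

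Genes that mark the activated B cell-like form were low together from 6 h. This list came from knowledge of the lymphoma type, but it was chosen with earlier results of these data known. Its counts are therefore a description and no independent support. It had 29 measured genes, of which 22 lay below 0 at 3 h, 28 at 6 h and 25 at 24 h. Its median was 0.00233, -0.142, -0.305 and -0.357 at 1.5, 3, 6 and 24 h, while the median of all genes stayed between -0.007 and -0.002. Over 3 to 24 h 7 of the 29 fell and 0 rose, against 14 and 10 of all 4514 genes tested. They were BATF, BCL2A1, CCND2, CFLAR, MIR155HG, PIM2 and PLEK.

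BATF, a leucine zipper factor that acts with IRF4, was at 0.12, -0.30, -0.90 and -1.03 at 1.5, 3, 6 and 24 h. It was lower by 0.74 ± 0.12 averaged over 3, 6 and 24 h (adjusted p = 0.00478), but 1 of its 5 probes went the other way and stood at 0.36 at 24 h. CFLAR encodes c-FLIP, an inhibitor of caspase 8, and was at 0.00, -0.14, -0.76 and -1.18. It fell by 0.69 ± 0.12 (adjusted p = 0.0102). BCL2A1, a survival protein of the BCL2 family, was at -0.05, -0.14, -0.58 and -0.60 and fell by 0.44 ± 0.08 (adjusted p = 0.0171). PLEK, which encodes the protein kinase C substrate pleckstrin, was at -0.06, -0.25, -0.86 and -0.88 and fell by 0.66 ± 0.10 (adjusted p = 0.00259). CFLAR and BCL2A1 had reached 12.2% and 23.8% of the 24 h ratio at 3 h, and 64.2% and 97% at 6 h. The low share at 3 h was not particular to them. Among the 14 lowered genes it ran from 2.08% (CCND2) to 119% (NFKBIA), with CD36 at 13% and CXCL10 at 22.9%.

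CCND2 encodes cyclin D2, which drives entry into the cell cycle. It was at 0.04, -0.02, -0.54 and -1.13 and fell by 0.56 ± 0.12 (adjusted p = 0.0372). CD36, a scavenger receptor, was at -0.08, -0.15, -0.62 and -1.15 and fell by 0.64 ± 0.14 (adjusted p = 0.0372). BUB1B, a spindle checkpoint kinase, reached -0.66 at 24 h and fell by 0.54 ± 0.11 over 3 to 24 h (adjusted p = 0.0207). POU2AF1, a coactivator of octamer factors in B cells, was at -0.65 at 24 h and fell by 0.43 ± 0.09 (adjusted p = 0.0402), with 1 of its 4 probes at -1.68 and the others between -0.49 and 0.06.

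MIR155HG is the transcript from which the microRNA miR-155 is cut. It was at -0.12, -0.23, -0.53 and -0.79 and fell by 0.52 ± 0.09 (adjusted p = 0.0101). Its 4 probes did not behave alike. At 24 h 2 were at -1.68 and -1.59, and the other 2 at -0.02 and 0.15. The mature sequence of its main product is shown with the seed, bases 2 to 8, in capitals, from RefSeq (GRCh38.p14) at chr21:25573983-25574006 on the plus strand. The microRNA itself was not measured.
hsa-miR-155-5p: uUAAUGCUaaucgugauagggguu

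Other known genes of this lymphoma type were low without passing. IRF4, a factor on which these cells depend, was at -0.37, -0.65 and -0.90 at 3, 6 and 24 h, with all 4 probes below 0 (adjusted p = 0.0529). STAT3 was at -0.23, -0.49 and -0.96 (adjusted p = 0.413), PIM1 at -0.38, -0.39 and -0.45 (adjusted p = 0.649) and CD44 at -0.08, -0.35 and -0.36 (adjusted p = 0.736). The 6 CD44 probes did not behave alike and ran from -0.84 to 0.14 at 24 h, with 4 below 0. IL10 was at -0.30, -0.37 and -0.38, IL6 at -0.01, -0.09 and -0.15, and SOCS3, a feedback inhibitor of JAK signalling, at 0.04, -0.11 and -0.20. The 4 IL10 probes ran from -0.628 to -0.095 at 24 h. TNF, LTA, LTB and ICAM1, which NF-kB activates in many cells, lay between -0.25 and -0.07 at 24 h. Of these 11 genes STAT3 and IRF4 had the lowest 24 h values.

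The raised genes were of other kinds. CCL4, a chemokine for T cells and monocytes, was at 0.12, 0.34, 1.13 and 0.98 at 1.5, 3, 6 and 24 h. Its 8 probes all lay above 0 at 24 h, and it was higher by 0.82 ± 0.12 averaged over 3, 6 and 24 h (adjusted p = 0.00259). Its neighbour in function, CCL3, was at 0.08, 0.48, 0.64 and 0.51 and did not pass (adjusted p = 0.0561). Of 39 tested chemokine and cytokine genes 1 rose and 1 fell, CCL4 and CXCL10, against 10 and 14 of all 4514 genes.

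S1PR1, the receptor by which lymphocytes leave lymphoid organs, was at 0.04, 0.57, 0.55 and 0.59, and had reached 97.4% of its 24 h ratio at 3 h. It rose by 0.57 ± 0.12 (adjusted p = 0.0273). CXCR4, a chemokine receptor that holds B cells in bone marrow and germinal centres, was at 0.07, 0.34, 0.43 and 0.54 and rose by 0.44 ± 0.09 (adjusted p = 0.0392). Of 32 measured genes of migration, adhesion and G protein regulation, 2 rose (these) and 1 fell (PLEK), against 10 and 14 of all 4514 genes.

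TNFRSF17 encodes BCMA, a receptor of plasma cells. It was at 0.08, 0.28, 0.50 and 0.74 and rose by 0.51 ± 0.11 (adjusted p = 0.0372). At 24 h its 2 probes stood at 0.40 and 1.07. PTPN22, a phosphatase that damps antigen receptor signals, was at -0.04, 0.26, 0.34 and 0.80 and rose by 0.47 ± 0.08 (adjusted p = 0.005). From the BMP and TGF-beta list, 3 of 24 measured genes rose and 0 fell, against 10 and 14 of all 4514 genes. The ligand gene BMP6 reached 0.66 at 24 h, ID3, an inhibitor of E proteins that BMPs induce, 0.62, and TGIF1, a corepressor of TGF-beta signalling, 0.63. Over 3 to 24 h they rose by 0.42 ± 0.09, 0.44 ± 0.09 and 0.46 ± 0.07 (adjusted p = 0.0372, 0.0207 and 0.0027). The 4 probes of TGIF1 lay between 0.61 and 0.66 at 24 h, while 1 of 3 ID3 probes was at -0.08. CCNDBP1, which binds D cyclins, rose by 0.40 ± 0.08 (adjusted p = 0.0171, 1 measured probe), and OAS1, an antiviral enzyme gene induced by interferon, by 0.39 ± 0.08 (adjusted p = 0.0402).

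Some genes were near 0 until 6 h and far from it at 24 h. JCHAIN, the joining chain of secreted IgM and IgA, was at -0.07, 0.11, 0.10 and 1.45 at 1.5, 3, 6 and 24 h. All 5 probes lay above 0 at 24 h, from 0.54 to 2.11. JCHAIN rose at 24 h (1.45 ± 0.23, adjusted p = 0.0107), as did ISG20, an interferon-induced exonuclease gene (0.62 ± 0.12, adjusted p = 0.0351). These are the 2 genes called at 24 h and not over 3 to 24 h.

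By size, 15 of the 4504 genes with a value on all 4 arrays were at least 1.5-fold higher at 24 h with both the 3 and the 6 h value within 0.3 of 0. In this way 21 were lower. The 24 h array had the widest spread over genes (SD 0.215, against 0.176 at 3 h and 0.147 at 6 h), so a fixed cut is passed more easily there. Of these, 13 and 11 had 2 or more probes. Others among the 15 were CHL1, an adhesion molecule (0.02, 0.07 and 1.03 at 3, 6 and 24 h), CD52, a surface glycoprotein of lymphocytes (-0.09, 0.17 and 1.02), and BTG1, an antiproliferative gene (0.09, 0.20 and 0.96). RGS1, a G protein regulator of B cells, was at 0.14, 0.09 and 0.66. Among the 21 were CDK4, the kinase partner of D cyclins (0.01, -0.07 and -0.76), PCNA, the sliding clamp of DNA replication (0.28, 0.10 and -0.68), and the chaperone gene HSP90AA1 (0.26, 0.02 and -0.63). CHL1 was chosen after its values were seen.

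Fewer genes were low or high throughout. From 3 h on, 8 of the same 4504 genes stayed at least 1.5-fold lower at every time and 0 higher. Besides the 4 called genes these included ELL2, an elongation factor that favours secreted immunoglobulin (-1.06, -0.91 and -1.41, 1 probe), and THOC2, an RNA export factor (-1.26, -0.92 and -1.06, 1 probe). ELL2 did not pass over 3 to 24 h (limma adjusted p = 0.299). At 24 h ELL2 was also low in OCI-Ly10 with IL-6 (-0.81) and with STAT3 siRNA (-0.79), so its value is not particular to the super-repressor. From 6 h on, 9 were lower and 1 higher, CCL4. At 3 or 6 h but within 0.3 of 0 at 24 h, 9 were lower and 3 higher, and of these 12 genes 1 had 2 or more probes. That gene was SOCS2, a feedback inhibitor of cytokine receptors, at -0.65, -0.10 and -0.10. THOC2 and SOCS2 were chosen after their values were seen.

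The difference between 24 h and the mean of 3 and 6 h passed for 0 of 4514 genes (0%) in the limma fit over all 40 arrays. At an unadjusted p under 0.05 there were 121 genes, below the share of 0.05 due without any change. The 0 calls therefore do not show that no gene changed after 6 h. The smallest adjusted p was 0.557. That smallest one was JCHAIN (1.35 ± 0.28), followed by PCNA (-0.87 ± 0.22, unadjusted p = 0.000769), CXCL10 (-1.11 ± 0.28, unadjusted p = 0.00079), and USF1 (0.71 ± 0.18, 1 probe). MTHFD2, a mitochondrial enzyme of folate metabolism, had a difference of -0.88 ± 0.23 (1 probe). Scaled to equal spread, the arrays gave 3 calls, JCHAIN, PCNA and MAD2L1.

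Gene lists of growth and division had more members below 0 than the 46.5% of all genes in this difference. Among 51 measured cell cycle genes 46 were lower at 24 h than at 3 and 6 h, with a median difference of -0.19, against 0.01 over all genes. At an unadjusted p under 0.05, 8 of the 51 were lower and 0 higher, against 82 lower and 39 higher of 4514. None passed after adjustment. MAD2L1, a spindle checkpoint gene, was at 0.29, 0.13 and -0.48 at 3, 6 and 24 h, and CDK1, the mitotic kinase, at 0.20, 0.11 and -0.28. CCND2 and BUB1B, called over 3 to 24 h, also belong to this list. MAD2L1 and CDK1 were chosen after their values were seen. No count of cells was measured on these arrays, so fewer dividing cells and less RNA per cell cannot be told apart.

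Several other growth and stress lists also had most members below 0 in this difference. Of 20 MYC-linked growth genes 18 were lower at 24 h than at 3 and 6 h (median difference -0.32). MYC itself was at -0.18, -0.35 and -0.61, and TFRC, the transferrin receptor, at -0.11, -0.39 and -0.91. Of 21 genes of the integrated stress and unfolded protein response 18 were lower (median -0.24), with WARS1, a tRNA synthetase gene, at -0.66 ± 0.22. Of 7 heat shock genes 5 were (median -0.46), of 28 glycolysis and hypoxia genes 21 (median -0.21) and of 10 oxidative phosphorylation genes 10 (median -0.20). The last list had a median of 0.27 at 3 h and -0.04 at 24 h, and 1 of its 10 genes lay below 0 at 3 h. The 26 cytosolic ribosomal protein genes did not share this, with 12 lower and a median difference of 0.004. These lists overlap in genes such as CDK4 and LDHA, and 0 members of any of them passed in this difference.

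**Figure D3:**
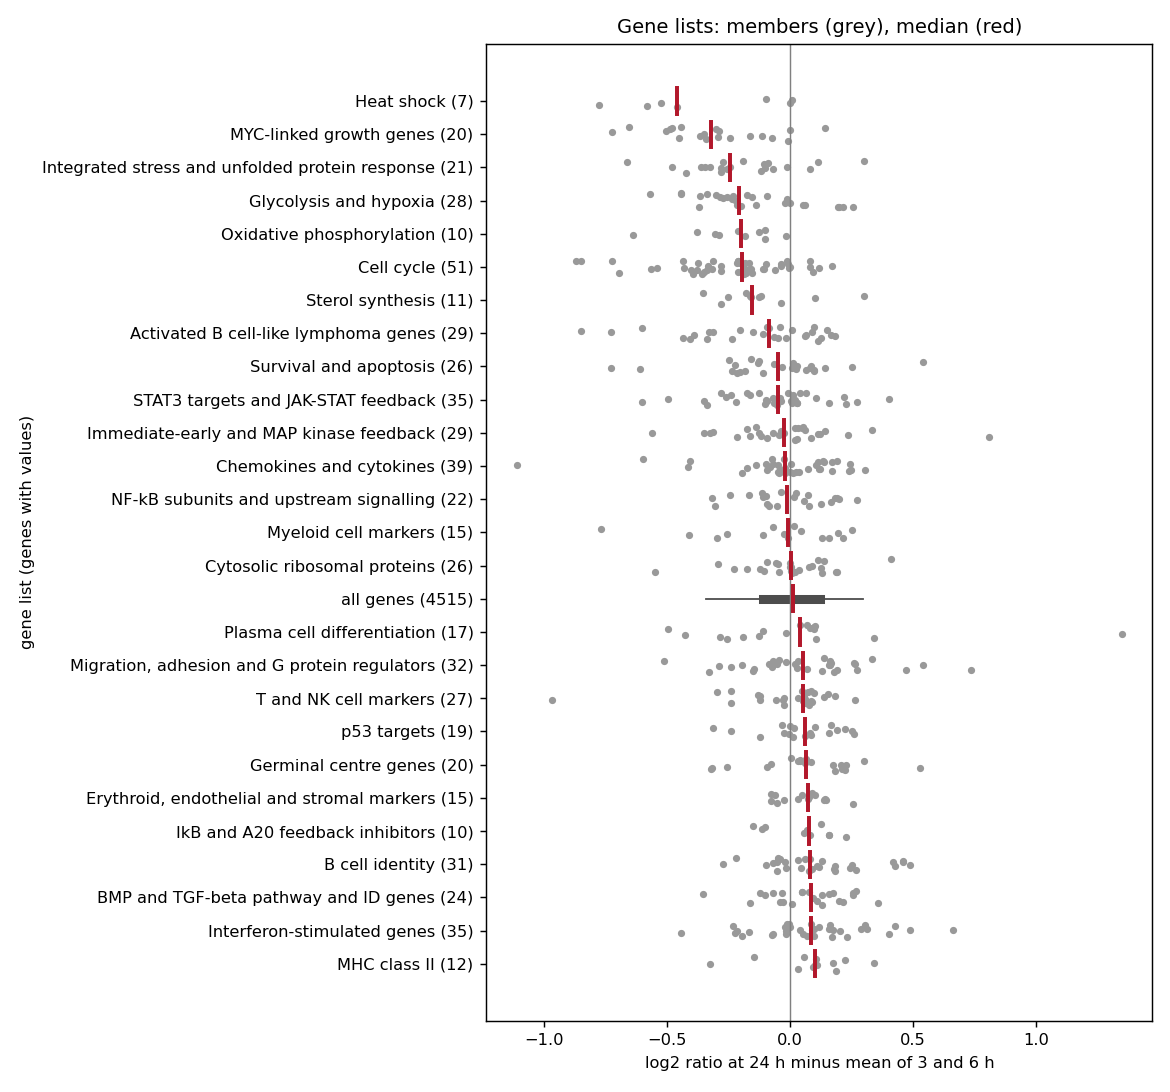
Log2 ratio at 24 h minus the mean of 3 and 6 h for each measured member (grey) of 26 gene lists, with the list's median in red. For all 4515 genes the thick bar spans the middle 50% of genes and the thin line the middle 90%. Heat shock, MYC-linked, stress response and cell cycle genes have medians of -0.46 to -0.19, and all genes one of 0.01.

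Other lists lay slightly above 0 at 24 h. Of 12 MHC class II genes 2 were below 0 (median 0.134), HLA-DMB, which loads peptides, reaching 0.52, and 0 passed. Of 35 interferon-stimulated genes 13 were below 0 (median 0.098). OAS1 and ISG20 rose at 24 h and 0 fell, against 5 and 7 of all 4563 genes tested. GBP1, an interferon-induced GTPase, was at -0.46. Of 17 plasma cell genes 8 were below 0 (median 0.035), with JCHAIN and TNFRSF17 the highest, ELL2 at -1.41 and PRDM1, the factor Blimp-1 that directs plasma cell fate, at -0.51. Their signs thus differed within 1 list. The germinal centre list had a median of 0.01 and its factor BCL6 stood at 0.12.

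The 24 h array was set against the other OCI-Ly10 arrays at that time, 1 with IL-6 and 2 with STAT3 siRNA. This difference removes a dye bias that a gene shows in all experiments. The control of the siRNA arrays had no siRNA, so their ratios, and this difference, also hold any effect of delivering siRNA. Of 3905 genes 1 passed (0.0256%), and 189 had an unadjusted p under 0.05. It was CXCL10, at -1.96 with the super-repressor, -0.18 with IL-6 and a mean of 0.24 with the siRNA, a difference of -1.99 ± 0.26 (adjusted p = 0.00138). CXCL10 passed under all 11 alternatives run for this difference.

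The next genes did not pass. BCL2A1 was at -0.60 with the super-repressor, 0.38 with IL-6 and 0.19 with the siRNA (difference -0.88 ± 0.17, adjusted p = 0.0675). CCL4 was at 0.98 with the super-repressor, -0.99 with IL-6 and 0.45 with the siRNA (difference 1.25 ± 0.24, adjusted p = 0.0675), so its spread among the others was wide. CD36 was at -1.15, 0.80 and -0.33 on the same arrays (adjusted p = 0.0675). JCHAIN was at 1.45, 0.31 and 0.19 (difference 1.203 ± 0.265, adjusted p = 0.0896), CCND2 at -1.13, -0.28 and 0.23 and PLEK at -0.88, -0.10 and 0.09.

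**Figure D4:**
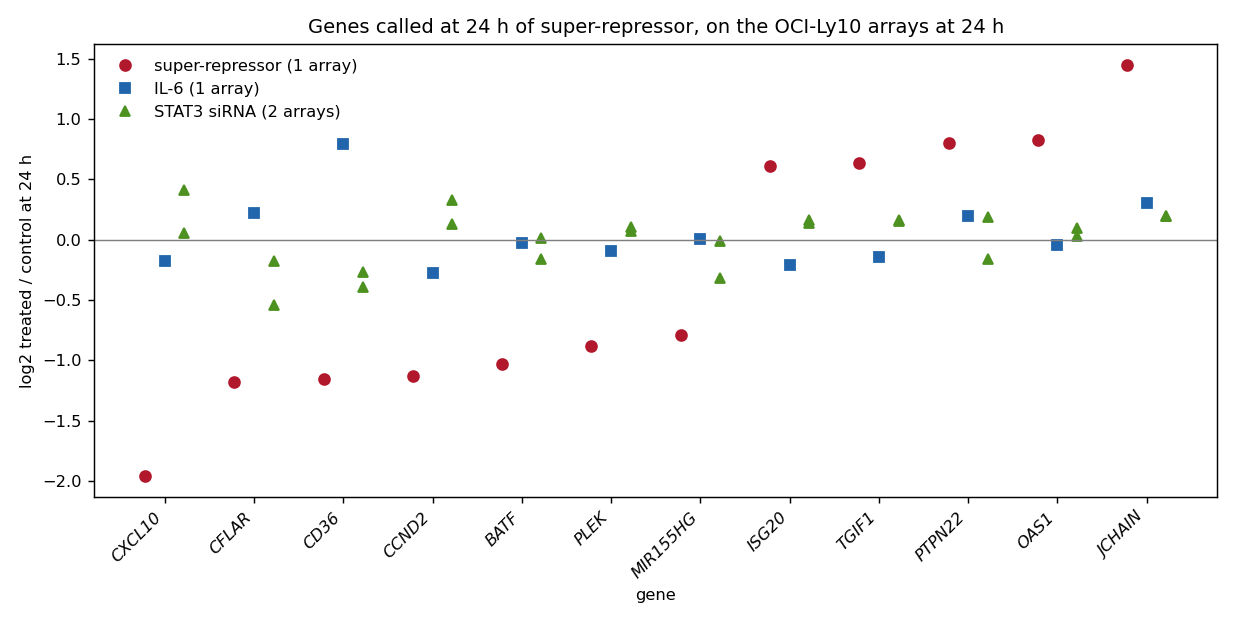
Log2 ratio of treated over control OCI-Ly10 cells at 24 h for the 12 genes called at 24 h of super-repressor. Circles are the super-repressor (1 array), squares IL-6 (1 array) and triangles STAT3 siRNA (2 arrays). CXCL10 is at -1.96 and JCHAIN at 1.45 with the super-repressor, and in both genes the other arrays lie nearer 0.

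The most alike experiment is the super-repressor in OCI-Ly3, with matched arrays at 1.5, 3 and 6 h. No gene of 4384 passed for the difference between the lines (0%) by limma, 108 had an unadjusted p under 0.05, and the smallest adjusted p was 0.994. Those 108 genes are below the share of 0.05 due without any difference, so the 0 calls do not show that the lines responded alike. NFKBIA was at -0.33, -1.10 and -1.07 in OCI-Ly10 and at -0.19, -1.52 and -2.17 in OCI-Ly3 at these times. CXCL10 was at -0.15, -0.45 and -1.25 in OCI-Ly10 and at 0.33, -0.40 and -1.72 in OCI-Ly3, and its average over the 3 times was -0.62 and -0.60. CFLAR also had similar values, -0.76 in OCI-Ly10 and -1.06 in OCI-Ly3 at 6 h.

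Some genes, chemokine and cytokine genes among them, had different values in the lines, though none passed. ICAM1 averaged -0.04 in OCI-Ly10 and -0.56 in OCI-Ly3 over the 3 times (difference 0.52 ± 0.14, limma unadjusted p = 0.00109). At 6 h TNFAIP3 was at -0.89 in OCI-Ly10 and -1.61 in OCI-Ly3, and RELB at -0.18 and -0.80. PLEK was alike in the lines at 6 h, at -0.86 and -0.88. TNF was at -0.12, -0.21 and -0.27 in OCI-Ly10 and at -0.36, -0.70 and -1.19 in OCI-Ly3 (difference 0.55 ± 0.12, unadjusted p = 0.000235). CCL4 was at 0.12, 0.34 and 1.13 in OCI-Ly10 and at -0.07, -0.10 and -0.06 in OCI-Ly3 (difference 0.61 ± 0.16, unadjusted p = 0.00138). CCL3 averaged 0.40 in OCI-Ly10 and -0.20 in OCI-Ly3 (difference 0.60 ± 0.17). With the arrays scaled to equal spread, CCL4 and CCL3 passed (adjusted p = 0.0129 and 0.0176). BMP6 was at 0.30 in OCI-Ly10 and 0.87 in OCI-Ly3 at 6 h, and the OCI-Ly10 value at 24 h, 0.66, has no OCI-Ly3 counterpart.

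**Figure D5:**
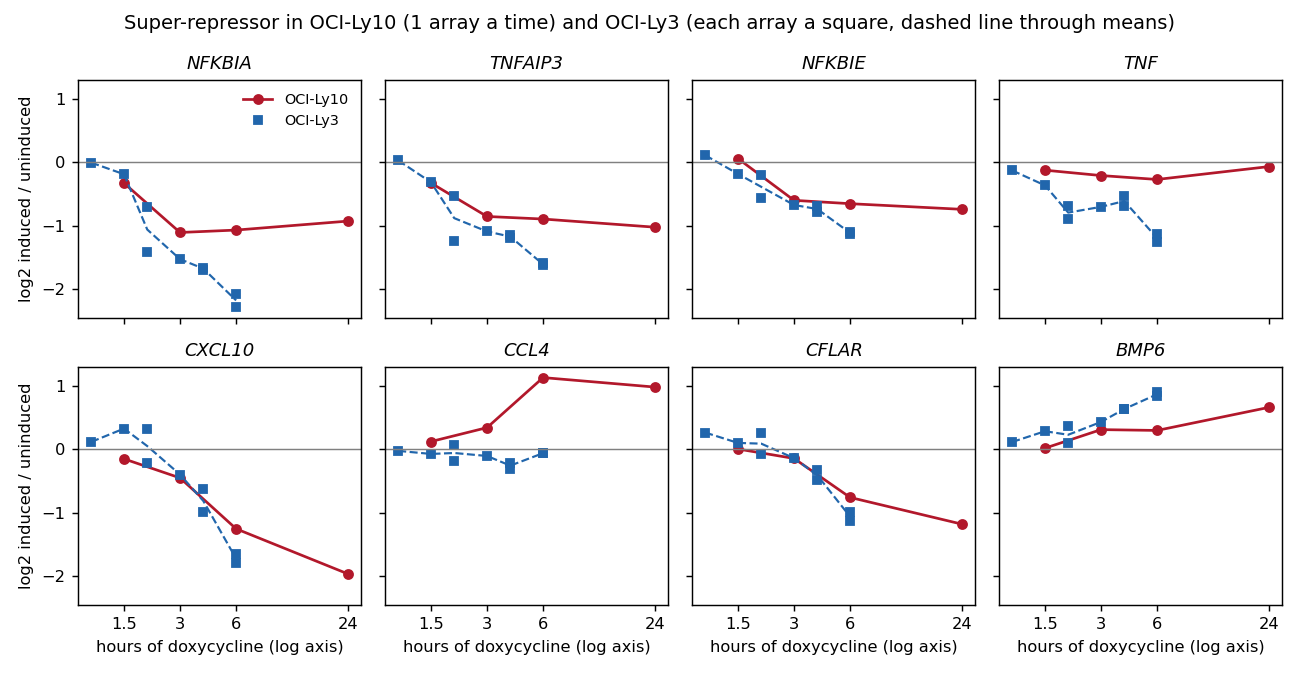
Log2 ratio of induced over uninduced cells against hours of doxycycline (log axis) for 8 genes. Red circles are OCI-Ly10 (1 array per time), blue squares single OCI-Ly3 arrays, with a dashed line through their means. At 6 h NFKBIA is at -1.07 in OCI-Ly10 and -2.17 in OCI-Ly3, and CCL4 is at 1.13 in OCI-Ly10 and -0.06 in OCI-Ly3.

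Markers of cells other than B cells were near 0, which on a ratio within 1 line shows a small change and no level. The median at 24 h was 0.04 over 27 T and NK cell genes, -0.01 over 15 myeloid genes and 0.06 over 15 erythroid, endothelial and stromal genes. In each of the first 2 lists 1 gene was at least 1.5-fold lower at 24 h, GZMB (-0.97, 1 probe) and CD36 (-1.15), and 0 were higher. Of 31 B cell identity genes 13 were below 0 at 24 h (median 0.0234), CD79B at 0.38 and IKZF1 at -0.56, and 0 passed over 3 to 24 h.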

How the data were processed

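RNA of treated (Cy5) and control (Cy3) cells was compared on 40 two-colour arrays of 15246 probes. The authors deposited 1 log ratio per probe and array, read here as log2 because the base is not stated, and 12.6% of the values are blank. For background correction and normalization the sources used here give no method. The deposited log2 ratios run Cy5 over Cy3, per the labels, so positive means higher in treated cells. The number of arrays limits the precision.

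Each array was centred on its median, and the 10169 probes with 1 gene symbol in the platform annotation were averaged to 4604 genes. The other 5073 probes without a symbol and 4 with several were not named. One limma fit (version 3.58.1, R 4.3.3) over all 40 arrays, with 1 mean per experiment and time, gave every contrast, with Benjamini-Hochberg adjustment at 0.05. A gene was tested where every time used had a value and at least 75% of the arrays used did. The fits were tested on simulated data.

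Named genes were the 8 highest and 8 lowest called genes per contrast (the 5 highest and 5 lowest at an unadjusted p under 0.01 where fewer were called), known NF-kB genes, and the 2 highest and 2 lowest of each of 26 gene lists in 24 h minus 3 and 6 h. Genes and lists were chosen with earlier results of these data known. Alternatives changed centring, scale, probe summary, filter, blocks, time scale and arrays used. Sequences are from RefSeq tables (GRCh38.p14).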

Additional observations from a re-analysis of the deposited data

Results flagged for a closer look

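CXCL10 differed between times, with a slope of -0.47 ± 0.08 per doubling of time (limma adjusted p = 0.0319) and lower values at each later array.

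CXCL10 also differed between treatments of OCI-Ly10 at 24 h, by -1.99 ± 0.26 between the super-repressor and the other arrays (limma adjusted p = 0.00138).

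Probes that carry no gene symbol here held signal outside the gene tests. Tested with all probes over 3 to 24 h, 25 of 4604 such probes passed, 12 higher and 13 lower. In the same test 81 probes passed among the 10169 with 1 gene symbol, so probes without a symbol did not pass more often. The 25 probes have no name here, and whether they share genes with the named probes was not tested.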

How the results depend on the processing

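Scaled to equal spread, the arrays gave 239 called genes over 3 to 24 h (124 higher, 115 lower; 51.9% higher, against 41.7% without this scaling), 36 slopes, 3 for 24 h minus 3 and 6 h, 15 at 1.5 h, 37 at 6 h, 86 at 24 h, 25 against the other 24 h arrays and 2 between the lines. The median of a gene's probes gave 3 slopes, 1 late gene (JCHAIN) and 4 against the other 24 h arrays. Genes with a value on all 40 arrays gave 2 at 6 h, 20 at 24 h and 12 against the other 24 h arrays. With the run of array identifiers as a random block (correlation 0.269), 5 genes were called over 3 to 24 h, 4 slopes, 2 at 6 h and 2 against the other 24 h arrays. With a replicate block within each experiment the counts were 39 over 3 to 24 h, 4 slopes, 2 at 6 h, 25 at 24 h and 13 against the other 24 h arrays. The 4 arrays carry no replicate number that pairs them. Over all probes, 106 passed over 3 to 24 h, 11 slopes, 51 at 24 h and 26 against the other 24 h arrays. On these arrays alone 52 genes passed over 3 to 24 h, 8 of them among the 24, with 20 slopes and, in a fit added after seeing the data, 22 late genes. The spread in that last fit is only the gap between the 3 and 6 h arrays, so its count is no support for a difference at 24 h. Time in hours gave 0 slopes and all 4 arrays from 1.5 h on gave 11 genes. Leaving out 1 array gave 1 to 17 genes over 3 to 24 h and 0 to 1 slopes. Leaving out 1 array put the slope of CD52 between -0.0302 (without the 24 h array) and 0.38. The cause of these changes was not tested, except that fewer arrays or another set of genes enter some fits. Without centring 23 of the 24 genes passed. NFKBIA passed over 3 to 24 h under 13 of 13 alternatives, TNFAIP3 under 12 and CXCL10 under 11.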
